A study of Homo sapiens with 12 samples.

Results

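The caveolins and cavins are the coat proteins of caveolae, and their RNA was followed here in TC71, an established Ewing sarcoma cell line. The family comprises 5 genes, CAV1, CAV2, CAVIN1, CAVIN2 and CAVIN3, found by gene identifier and by symbol, the older names PTRF, SDPR and PRKCDBP included. Of these, 4 have a row among the 21569 genes of the count table, and all 4 passed the filter on low counts, as did 17084 genes in all. CAVIN2 was not analysed here. The family was chosen from earlier results of the same data, in which CAVIN3 had no read in the wild-type libraries and had reads in both knockout clones. Values of the members in either clone against wild-type, and between the clones, are therefore given as a description with no test. Members in the libraries labelled rescue took no part in that choice and were tested. The groups they were tested against, wild-type and the parent knockout clone, did take part. The p-values of these tests are therefore not free of the choice.

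Polyadenylated RNA was sequenced from 12 libraries in 4 groups of 3. These are TC71 cells with wild-type ID2, ID2 knockout clone 1, ID2 knockout clone 2, and clone 2 with an ID2 rescue, all grown in DMEM with serum. ID2 encodes an inhibitor that pairs with E proteins, which are helix-loop-helix transcription factors, and keeps them from binding DNA. Each knockout group is 1 clone, the rescue line was derived from clone 2, and the labels give neither the guide nor the rescue construct. Whether the 3 libraries within a group are from different cultures is not stated in the labels. The p-values rest on the spread among these libraries, and that spread may be technical.

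Libraries held 19420408 to 29748084 counts. All 8 Ewing sarcoma markers examined, CD99 and NKX2-2 among them, had a mean of 1 or more counts scaled to library size (CPM, counts per 1000000 counts) over the 12 libraries. Mean ID2 RNA was 77.9 CPM for wild-type, 18.1 CPM for clone 1, 50.9 CPM for clone 2 and 41.5 CPM for the libraries labelled rescue. The level in the last group was thus below that of its parent clone, against what the label leads one to look for, and these libraries are called by their label only. Between 39.2% and 62.2% of tested genes were called in each of the 5 comparisons, so a call on its own is common in these data. In bulk RNA, fewer cells that express a gene and less RNA per cell cannot be told apart.

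Caveolae are small flask-shaped pits of the plasma membrane that buffer membrane tension and gather lipids and receptors. CAV1 is the scaffold without which caveolae do not form in most cells, and CAV2 needs CAV1 to reach the surface. Cavins join from the cytosol: CAVIN1 is required for the coat, while CAVIN2 shapes it and CAVIN3 binds protein kinase C delta and affects how caveolae move. CAV1 has been described as a target of the EWSR1-FLI1 fusion protein of Ewing sarcoma, and CAVIN3 as a gene that is often silenced in tumours.

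CAV1 and CAV2 lie on the same strand of chromosome 7, and the 250 bases before their RefSeq starts (GRCh38.p14) are shown because both genes were lowest in clone 1 and higher in clone 2 than in wild-type. Capitals mark matches, on either strand, to the E-box CANNTG, the motif of the helix-loop-helix factors that ID2 restrains, and to GGAAGGAA, a repeat of the ETS core GGAA. The CAV1 window is chr7:116524759-116525008 and that of CAV2 is chr7:116499488-116499737, both on the plus strand. The gene spans given below are from GENCODE, whose starts differ from those of RefSeq. By those spans, the CAV1 window takes in the gene start and the CAV2 window lies inside the gene.
CAV1: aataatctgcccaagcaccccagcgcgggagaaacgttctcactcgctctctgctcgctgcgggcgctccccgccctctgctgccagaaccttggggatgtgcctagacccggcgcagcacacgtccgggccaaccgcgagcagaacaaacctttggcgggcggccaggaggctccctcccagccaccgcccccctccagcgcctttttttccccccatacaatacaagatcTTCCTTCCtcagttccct
CAV2: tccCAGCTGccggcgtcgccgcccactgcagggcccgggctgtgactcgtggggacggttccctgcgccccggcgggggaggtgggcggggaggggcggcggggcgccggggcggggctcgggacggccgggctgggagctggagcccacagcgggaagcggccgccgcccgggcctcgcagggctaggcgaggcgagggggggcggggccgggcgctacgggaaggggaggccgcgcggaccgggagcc
The CAV1 window held no E-box and 1 GGAAGGAA, which reads TTCCTTCC on the strand shown. In CAV2 there was 1 E-box, CAGCTG, whose first base lies 247 bases before the start, and no GGAAGGAA. Of 35114 RefSeq windows of the same length, 61.8% held an E-box and 3.1% held GGAAGGAA. The single GGAA core, which also counts the bases inside the repeat, matched 4 times in CAV1 and 3 times in CAV2, and 92.7% of windows held at least 1. CpG dinucleotides numbered 18 in the CAV1 window and 35 in that of CAV2, against a median of 11, and GC content was 63.6% and 83.2% against a median of 58.0%. RefSeq lists 3 starts for CAV1 and 2 for CAV2, and only 1 window of each is shown. A match is a string of letters, and no binding was measured here.

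CAV1 (ENSG00000105974; hg38 chromosome 7, 116524785 to 116561184, plus strand) was the most abundant member by far. Its 3 wild-type libraries were at 1118, 1115 and 1131 CPM, and those of clone 1 at 888, 898 and 886 CPM. Clone 2 libraries were at 1180, 1192 and 1199 CPM, and the libraries labelled rescue at 1302, 1378 and 1314 CPM. The order of the groups from low to high was clone 1, wild-type, clone 2 and rescue. Means were 1121 ± 8.74, 890.5 ± 6.92, 1190 ± 9.46 and 1331 ± 40.6 CPM (SD, n = 3) for wild-type, clone 1, clone 2 and rescue. Against wild-type, the log2 fold change was −0.33 (SE 0.029) in clone 1 and 0.09 (SE 0.029) in clone 2. The clone 2 value was 0.16 under upper quartile scaling and 0.05 with no filter on low counts. By mean CPM it ranked 77 among the 17084 tested genes of wild-type cells, 95 for clone 1, 63 for clone 2 and 56 for the libraries labelled rescue.

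CAV2 (ENSG00000105971; chromosome 7, 116287380 to 116508541, plus strand) showed the same order for wild-type and both clones at a lower level. Wild-type libraries were at 157, 168 and 164 CPM, with a mean of 163 ± 5.64 CPM (SD, n = 3). Clone 1 was at 128, 134 and 142 CPM (134 ± 6.87). Clone 2 was at 177, 187 and 181 CPM (181 ± 5.14), and the libraries labelled rescue were at 174, 182 and 171 CPM (175 ± 5.87). The last 2 groups overlapped. Log2 fold changes against wild-type were −0.28 (SE 0.038) in clone 1 and 0.15 (SE 0.037) in clone 2. An antisense gene, AC002066.1, overlaps 76 exonic bases of CAV2 and had 9 to 32 reads per library, against 2558 to 5057 reads of CAV2.

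CAVIN1 (ENSG00000177469; chromosome 17, 42402452 to 42423517, minus strand), the cavin that the caveolar coat requires, was high in clone 1 and low elsewhere. Its wild-type libraries were at 15.5, 16.7 and 14.6 CPM (15.6 ± 1.06, SD, n = 3). Clone 1 libraries were at 62.6, 60.6 and 64.0 CPM (62.4 ± 1.74), 3.998-fold the wild-type level (log2 fold change 2.01, SE 0.056). Clone 2 libraries, at 16.2, 15.2 and 16.3 CPM (15.9 ± 0.625), lay among the wild-type values, with a log2 fold change of 0.04 (95% interval −0.10 to 0.17), which was −0.03 without wild-type replicate 3. The libraries labelled rescue were lowest, at 13.0, 13.8 and 14.4 CPM (13.7 ± 0.748). Clone 1 thus stood apart from the other 3 groups, whose means spanned 13.7 to 15.9 CPM.

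CAVIN3 (ENSG00000170955; chromosome 11, 6318946 to 6320647, minus strand), the gene whose counts led to the choice of the family, had no read in the 3 wild-type libraries out of 75825341 counts. A count of 0 over the group allows up to 0.0406 CPM, taken at 3 counts. Clone 1 libraries held 120, 116 and 104 reads, or 5.998, 4.12 and 4.28 CPM (4.80 ± 1.04, SD, n = 3). Clone 2 libraries held 14, 6 and 12 reads, or 0.489, 0.304 and 0.556 CPM (0.449 ± 0.130). The libraries labelled rescue held 22, 20 and 22 reads, or 0.808, 0.775 and 0.841 CPM (0.808 ± 0.0331). Every knockout or rescue library therefore had reads, with the most in clone 1 and the fewest in clone 2. Over the wild-type floor, the observed level was 116-fold higher in clone 1, 11.3-fold in clone 2 and 19.9-fold in the libraries labelled rescue. These folds leave out the counting error of the groups with reads, so they are not strict lower bounds. Clone 2 held 0.0974 times the level of clone 1 (exact 95% interval 0.0655 to 0.140, counting error only). A gene on the opposite strand, AC068733.3, overlaps 557 of the 1672 exonic bases of CAVIN3 and was not analysed here. The strand setting of the read counter is not given in the sources used here, so reads of the overlap cannot be assigned to one strand.

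**Figure D1:**
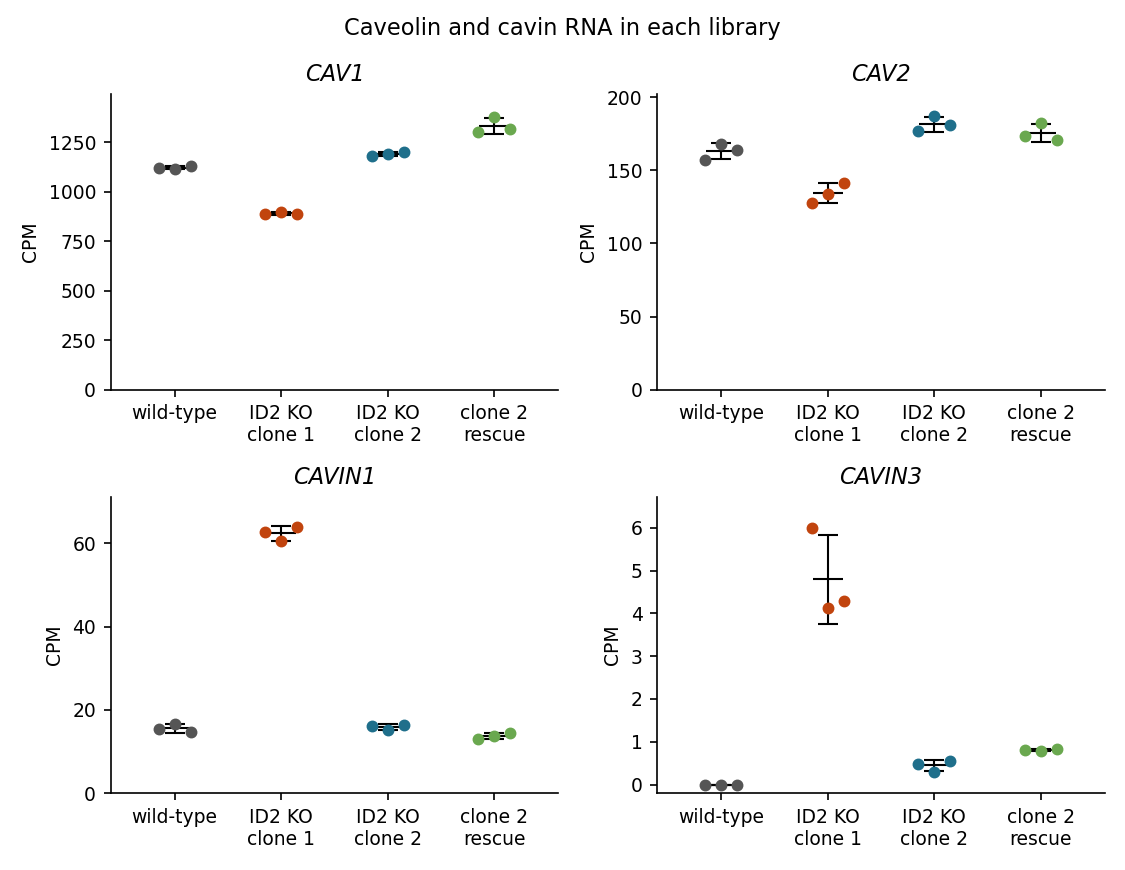
Each point is 1 library, the vertical axis is CPM on a linear scale of its own in each panel, and bars give the mean and SD of the 3 libraries of a group. CAV1 and CAV2 are lowest in clone 1, CAVIN1 is near 62 CPM in clone 1 and under 17 CPM elsewhere, and CAVIN3 is at 0 in wild-type alone.

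Levels of different genes were compared per kilobase of exon (CPM per kb), using all exons annotated for a gene, which understates a gene whose main transcript is short. On this scale wild-type cells held 275 for CAV1, 23.5 for CAV2, 4.08 for CAVIN1 and 0 for CAVIN3. In clone 1 the same quantities were 218, 19.4, 16.3 and 2.87. Clone 2 had 292, 26.2, 4.15 and 0.269, and the libraries labelled rescue 326, 25.3, 3.59 and 0.483. The order CAV1, CAV2, CAVIN1, CAVIN3 was thus the same in all 4 groups, while the distance between caveolins and cavins was not.

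CAV1 and CAV2, which form mixed oligomers, kept a ratio of CPM per kb close to 11.7 ± 0.419 in wild-type, 11.3 ± 0.593 in clone 1 and 11.1 ± 0.275 in clone 2 (SD, n = 3). In the libraries labelled rescue it was 12.9 ± 0.175, above every other library. The ratio of CAV1 to CAVIN1 was 67.6 ± 5.04 for wild-type, 13.4 ± 0.478 for clone 1, 70.3 ± 2.86 for clone 2 and 91.1 ± 4.99 for the libraries labelled rescue. Clone 1 libraries thus held far more CAVIN1 RNA for each CAV1 RNA than any other library. CAVIN1 exceeded CAVIN3 by 5.83 ± 1.10 times in clone 1, 16.4 ± 4.80 times in clone 2 and 7.43 ± 0.389 times in the libraries labelled rescue. The spread in clone 2 comes with only 6 to 14 CAVIN3 reads per library.

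**Figure D2:**
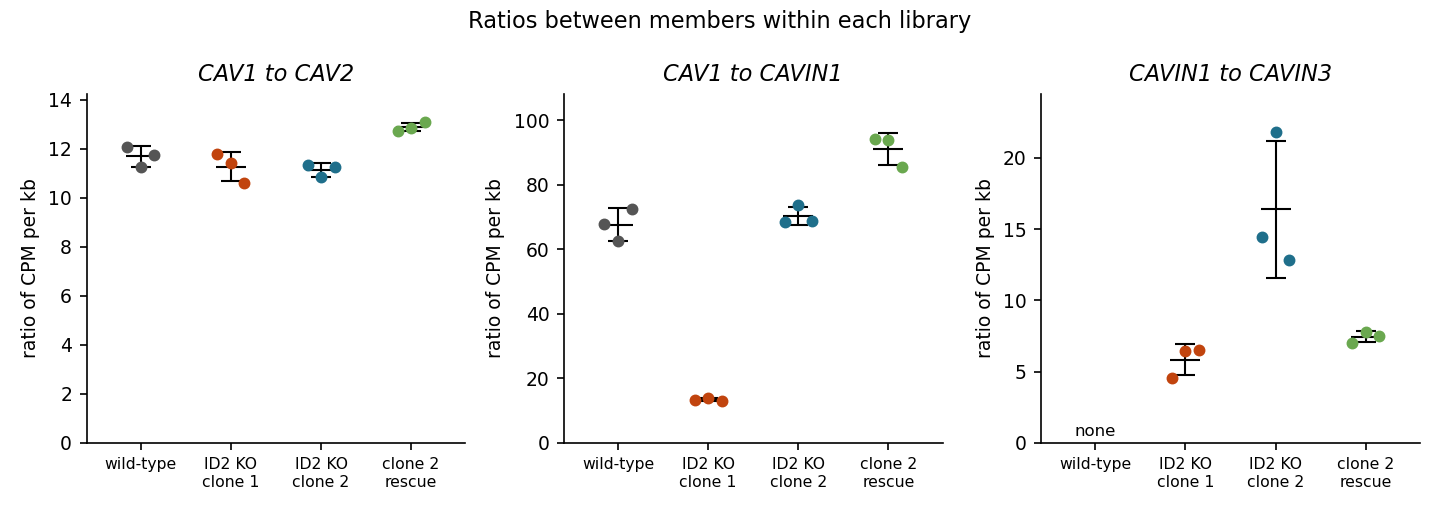
Points are single libraries, the vertical axis is the ratio of 2 members' CPM per kb (no unit), and bars are the mean and SD of 3 libraries. CAV1 to CAV2 stays between about 11 and 13 in the group means, CAV1 to CAVIN1 is 13.4 in clone 1 against 67.6 in wild-type, and no CAVIN1 to CAVIN3 ratio exists for wild-type because CAVIN3 is at 0.

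Against its parent clone 2, the line labelled rescue showed CAV1 up, CAVIN1 down and CAVIN3 up, each by less than 2-fold. CAV1 rose by a log2 fold change of 0.16 (SE 0.029; adjusted p = 1.41e-05, edgeR quasi-likelihood test). CAVIN1 fell by 0.21 on the log2 scale (SE 0.069; adjusted p = 0.0114). CAVIN3 rose by 0.82 (SE 0.329; adjusted p = 0.0457), and the ratio of its summed reads, scaled for depth, was 1.77 (exact 95% interval 1.14 to 2.79). CAV2 did not pass the test, with a log2 fold change of −0.05 (95% interval −0.12 to 0.02; adjusted p = 0.322). Over all genes in this comparison, 19.3% were called higher and 19.9% lower. The CAVIN1 call was lost without clone 2 replicate 1 (−0.19, adjusted p = 0.0661), clone 2 replicate 3 (−0.19, adjusted p = 0.0548) or rescue replicate 1 (−0.16, adjusted p = 0.104). That of CAVIN3 was lost under 7 of the alternatives, 5 of which leave out 1 of the 6 libraries compared, while CAV1 passed under all of them.

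Against wild-type, CAV1 was also higher in the libraries labelled rescue, by 0.25 on the log2 scale (SE 0.029; adjusted p = 8.56e-10). CAV2 was higher by 0.11 (SE 0.037; adjusted p = 0.0120), and CAVIN1 fell by 0.18 (SE 0.068; adjusted p = 0.0242). Over all genes, 28.5% were called higher and 29.9% lower here. The CAV2 call was lost without wild-type replicate 1 (0.08, adjusted p = 0.112) or rescue replicate 2 (0.08, adjusted p = 0.0952). The CAVIN1 call was lost without wild-type replicate 2 (−0.13, adjusted p = 0.153) or rescue replicate 1 (−0.14, adjusted p = 0.130), under upper quartile scaling and when only these groups were fitted. Both comparisons use the same rescue libraries, so their values are not independent of each other.

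The genes next to each member on its chromosome were examined, taking the 5 nearest of the count table on each side. Around CAVIN3, 7 of 10 neighbours were tested. In clone 1 against wild-type, 4 of them were higher and 0 lower, with a median log2 fold change of 0.24, where 30.8% of all genes were called higher and 30.7% lower. In clone 2 against wild-type all 7 were lower and 0 higher, with a median of −0.79, where 31.5% of all genes were called higher and 30.6% lower. CAVIN3 itself was higher than wild-type in clone 2, opposite in sign to these 7 neighbours. Over the 711 tested genes of chromosome 11 with a mean of 1 CPM or more, the median was −0.60 in clone 2, −0.55 in the libraries labelled rescue and −0.02 in clone 1, whereas the medians of chromosomes 7 and 17 lay within 0.05 of 0. The part of this shift along chromosome 11 in the CAVIN3 values was not tested. The lists below were not split by chromosome, so the part of the shift in their clone 2 or rescue values was not tested.

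TRIM6, one of the CAVIN3 neighbours and a ubiquitin ligase gene, had 16, 14 and 23 reads in wild-type and 82, 95 and 70 in clone 1. It had no read in any library of clone 2 or rescue, at least 16.7-fold lower than wild-type in clone 2. TRIM6 and CAVIN3 thus shared their highest level in clone 1 and differed in clone 2, where CAVIN3 had reads and TRIM6 had none.

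Around CAVIN1, 8 of 10 neighbours were tested, of which 5 were higher and 0 lower in clone 1 against wild-type (median log2 fold change 0.39), beside 30.8% and 30.7% of all genes. In clone 2 against wild-type 5 were higher and 1 lower (median 0.33), beside 31.5% and 30.6% of all genes, in a clone where CAVIN1 lay at the wild-type level. STAT5A, which encodes a cytokine-activated transcription factor, was at 0.0419, 0.142 and 0.276 CPM in wild-type. In clone 1 it was at 3.45, 2.81 and 2.63 CPM, in clone 2 at 0.489 to 0.557 CPM and in the libraries labelled rescue at 0.220 to 0.306 CPM. Around CAV1, 8 of 10 neighbours were tested, with 3 higher and 2 lower in clone 1 against wild-type (median 0.03). In clone 2, 2 were higher and 3 lower (median −0.13), beside the same shares of all genes. Around CAV2, 4 of 8 tested were higher and 2 lower in clone 1 (median 0.06), and 3 and 3 in clone 2 (median −0.05). MET, a CAV1 neighbour and the receptor of hepatocyte growth factor, was at 11.5, 10.3 and 10.8 CPM in wild-type. In clone 1 it was at 23.9, 23.4 and 25.4 CPM. It was at 17.8, 17.5 and 18.1 CPM in clone 2, so MET was above wild-type in both clones while CAV1 was below it in clone 1.

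**Figure D3:**
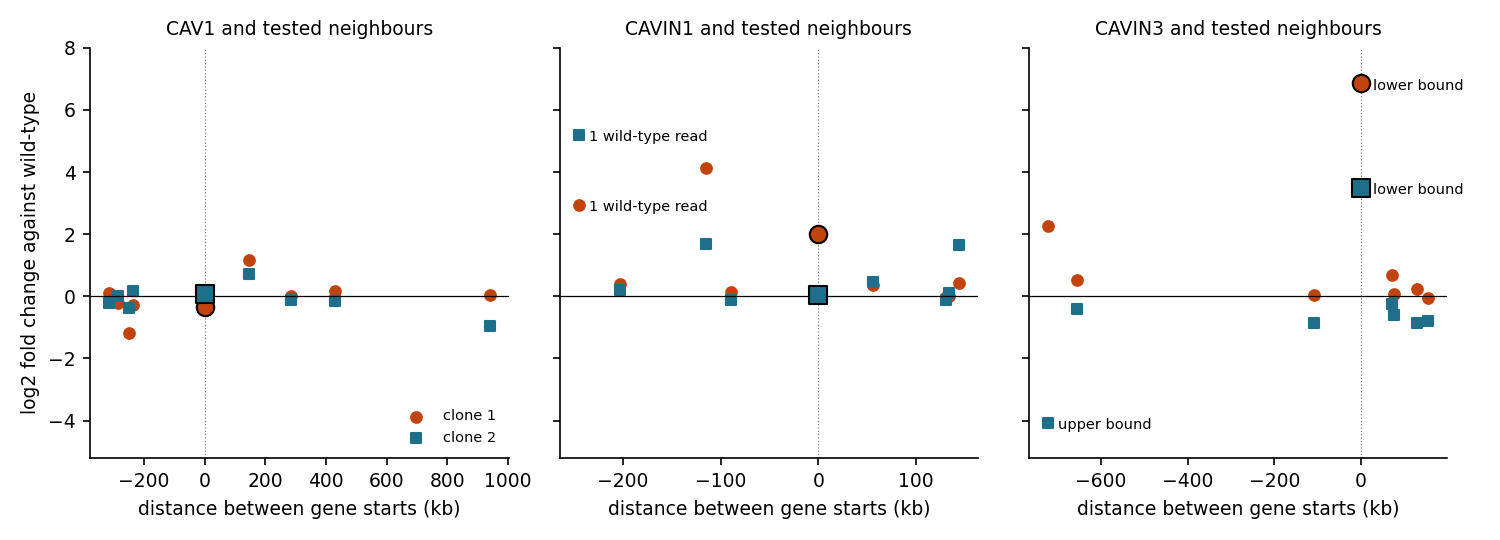
Log2 fold change against wild-type (vertical axis) by distance of a neighbour's start from that of the member (horizontal axis, kb), with circles for clone 1, squares for clone 2 and the member outlined at 0. Values against a group without reads are drawn at their bound, and a neighbour with 1 wild-type read is marked. All 7 clone 2 squares around CAVIN3 lie below 0 while CAVIN3 lies above it.

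Proteins that work with caveolins and cavins were followed in a list of 13 partners, of which 11 were tested. In clone 1 against wild-type 6 were higher and 2 lower (median log2 fold change 0.20, all genes 0.01), where 30.8% of all genes were called higher and 30.7% lower. In clone 2 against wild-type 3 were higher and 6 lower (median −0.26, all genes 0.01), where the shares were 31.5% and 30.6%. In rescue against clone 2 there were 3 higher and 3 lower (median 0.03), with shares of 19.3% and 19.9%. Between the clones, clone 2 against clone 1, 1 was higher and 7 lower (median −0.53), where 30.3% of all genes were called higher and 31.9% lower. With so many genes called, these counts describe the list and set it apart from no other. List genes are named below for large called folds in these same comparisons, and the lists were chosen with earlier results known. Their p-values are therefore not free of that choice.

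EHD2, an ATPase that sits at the neck of caveolae and holds them at the surface, was among the partners with the greatest difference. It was at 3.82, 3.65 and 3.76 CPM in wild-type and at 13.1, 11.5 and 13.7 CPM in clone 1. Clone 2 libraries were at 1.47, 1.52 and 2.27 CPM and the libraries labelled rescue at 1.87, 1.74 and 2.14 CPM. EHD2 thus rose in clone 1 (log2 fold change 1.76, SE 0.111; adjusted p = 2.84e-17) and fell by 1.11 on the log2 scale in clone 2 (SE 0.165; adjusted p = 1.99e-07). Like CAVIN1 it was highest in clone 1, but unlike CAVIN1 it was below wild-type in clone 2.

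DNM1, a dynamin that pinches vesicles off the membrane, rose in both clones, from 5.71 CPM in wild-type to 14.7 CPM in clone 1 (log2 fold change 1.37, adjusted p = 1.29e-16) and 10.2 CPM in clone 2 (0.84, adjusted p = 9.37e-10). It fell to 6.98 CPM in the libraries labelled rescue (−0.54 against clone 2, adjusted p = 7.57e-06). ROR1, a receptor reported to scaffold CAV1 and CAVIN1, was at 14.8 to 16.9 CPM for wild-type, 27.2 to 27.9 for clone 1, 11.8 to 14.2 for clone 2 and 12.1 to 14.3 for the libraries labelled rescue. Its level was thus highest in clone 1. PACSIN3, a membrane-bending F-BAR protein, fell by 0.79 on the log2 scale in clone 2, from 51.2 to 29.6 CPM (adjusted p = 2.90e-16). It rose to 36.9 CPM in the libraries labelled rescue (0.32 against clone 2, adjusted p = 9.96e-06). The part, if any, of the chromosome 11 shift in the clone 2 fall was not tested. CAVIN4, the muscle cavin, was low throughout and fell from 1.91 CPM in wild-type to 1.05 CPM in clone 1 (−0.84, adjusted p = 0.00107).

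Of 10 receptors and kinases reported in caveolae, 9 were tested. In clone 1 against wild-type 7 were higher and 1 lower (median log2 fold change 0.36), beside 30.8% and 30.7% of all genes. In clone 2 against wild-type 3 were higher and 5 lower (median −0.32), beside 31.5% and 30.6%. In rescue against clone 2 there were 0 higher and 4 lower (median −0.06), beside 19.3% and 19.9%. PRKCD, the kinase that CAVIN3 binds, was at 6.29, 6.54 and 6.07 CPM in wild-type and at 23.5, 24.3 and 22.7 CPM in clone 1 (log2 fold change 1.90, SE 0.078; adjusted p = 1.85e-23). It was at 4.47, 4.15 and 4.77 CPM in clone 2 and at 5.18, 5.19 and 4.70 CPM in the libraries labelled rescue. PRKCD and CAVIN3 were thus both highest in clone 1, while in clone 2 PRKCD was below wild-type and CAVIN3 above it.

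INSR, the insulin receptor, rose in both clones, from 20.7 CPM in wild-type to 44.9 in clone 1 (1.11, adjusted p = 1.31e-21) and 28.0 in clone 2 (0.43, adjusted p = 1.01e-08). PDGFRB, a growth factor receptor, was at 94.4 to 98.6 CPM for wild-type, 152 to 165 for clone 1, 65.4 to 66.8 for clone 2 and 23.2 to 27.3 for the libraries labelled rescue. It followed the order clone 1, wild-type, clone 2, rescue, the reverse of the order of CAV1. TGFBR1, a TGF-beta receptor, fell by 0.73 on the log2 scale in clone 1, from 28.4 to 17.2 CPM (adjusted p = 2.62e-13).

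**Figure D4:**
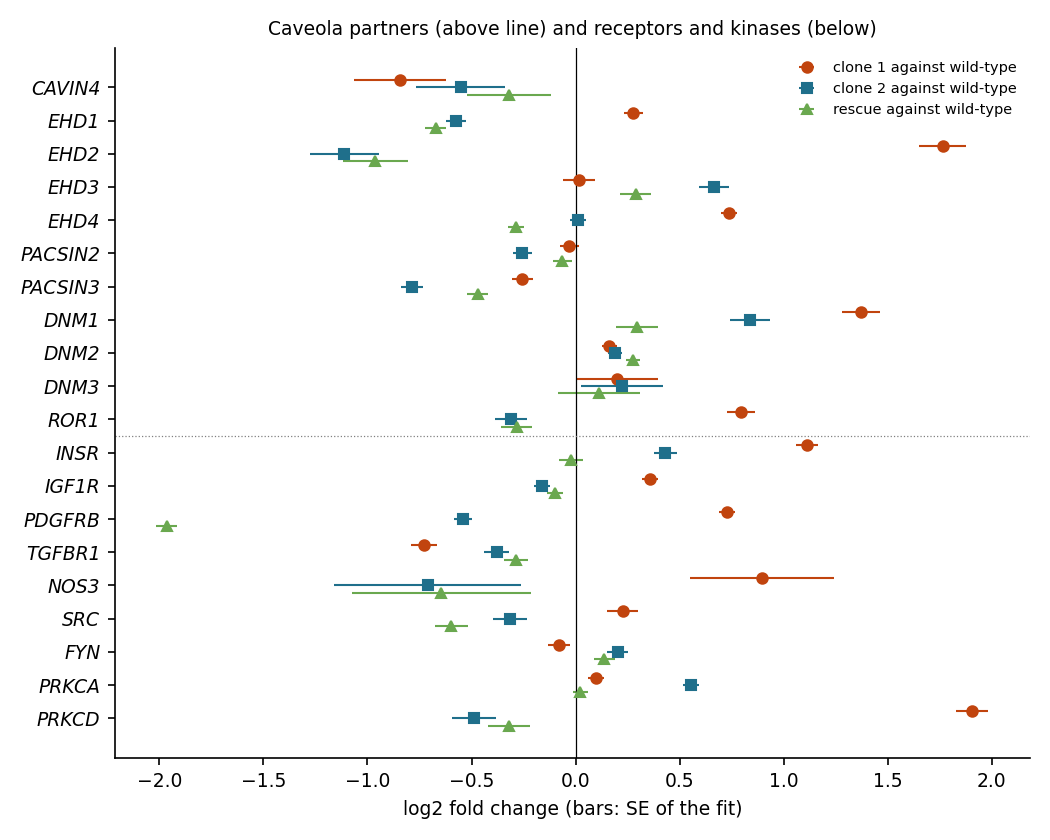
Log2 fold change against wild-type (horizontal axis) of each tested caveola partner (above the line) and each tested receptor or kinase (below it) in clone 1, clone 2 and rescue, with bars for the SE of the fit. EHD2 (1.76) and PRKCD (1.90) lie far to the right in clone 1 and left of 0 in clone 2.

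Clathrin-coated pits are another route into the cell, and flotillins and prohibitins are other scaffolds of membrane rafts. Of all genes, 30.8% were called higher and 30.7% lower in clone 1 against wild-type, and 31.5% and 30.6% in clone 2. Of 15 clathrin coat genes, all tested, 5 were higher and 5 lower in clone 1 (median log2 fold change 0.06), and 5 were higher and 5 lower in clone 2 (median 0.07). FCHO1, an early factor of clathrin pits, rose from 1.23 CPM in wild-type to 9.81 CPM in clone 1 (3.01, adjusted p = 1.90e-18) and 2.51 CPM in clone 2 (1.03, adjusted p = 0.000151). PICALM, a clathrin assembly protein, fell by 0.96 on the log2 scale in clone 2, from 149 to 76.9 CPM (adjusted p = 5.08e-24). The part, if any, of the chromosome 11 shift in clone 2 (median −0.60) in this fall was not tested. Among 7 other raft scaffold genes, 3 were higher and 2 lower in clone 1 (median 0.08), and 2 were higher and 4 lower in clone 2 (median −0.15). In clone 2 against clone 1, 2 of these 7 were higher and 5 lower (median −0.24), beside 30.3% and 31.9% of all genes. FLOT1 and FLOT2, the flotillins, moved apart in clone 2, where FLOT1 fell by 0.68 on the log2 scale (92.4 to 57.7 CPM, adjusted p = 5.75e-17) and FLOT2 rose by 0.55 (38.0 to 55.4 CPM, adjusted p = 3.37e-13).

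Caveolin and cavin genes have been listed among targets of the mechanical signalling factors YAP and MRTF, so other targets of both were counted. Of 11 tested YAP-TEAD targets, 8 were higher and 2 lower in clone 1 against wild-type (median log2 fold change 0.66), beside 30.8% and 30.7% of all genes. In clone 2 against wild-type 4 were higher and 6 lower (median −0.30), beside 31.5% and 30.6%. In rescue against wild-type 2 were higher and 9 lower (median −1.01), beside 28.5% and 29.9%. AXL, a receptor kinase, rose from 0.999 CPM in wild-type to 10.9 CPM in clone 1 (3.45, adjusted p = 1.36e-21). LATS2, a kinase that restrains YAP, rose from 40.9 to 79.3 CPM in clone 1 (0.95, adjusted p = 2.70e-21). It was also higher in clone 2, at 55.9 CPM (0.45, adjusted p = 7.58e-11). The 2 lower in clone 1 were F3 (−0.79, adjusted p = 4.05e-16) and CRIM1 (−0.36, adjusted p = 0.000171). Of 10 tested MRTF-SRF targets, 5 were higher and 4 lower in clone 1 (median −0.04), and 2 were higher and 4 lower in clone 2 (median −0.03), against the same shares of all genes. CALD1, an actin-binding protein, fell by 5.83 on the log2 scale in clone 1, from 4.21 to 0.0833 CPM (adjusted p = 1.02e-15). That clone 1 mean is near the floor, with an SD of 0.144 CPM (n = 3), so the size of the fall is imprecise.

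Markers of other cell types rich in caveolae moved with the groups in part. Of 8 endothelial markers 3 had a row, and their summed level was 3.79 to 4.70 CPM for wild-type, 4.10 to 4.37 for clone 1, 8.60 to 10.0 for clone 2 and 7.09 to 8.08 for the libraries labelled rescue. All 7 fibroblast and mesenchymal markers had a row, and 6 had a mean of 1 CPM or more over the 12 libraries. Their sum was 149 to 156 CPM for wild-type, 242 to 271 for clone 1, 90.1 to 99.995 for clone 2 and 29.5 to 36.2 for the libraries labelled rescue. This sum, which includes PDGFRB, was highest in clone 1 as CAVIN1 was, and its part in the CAVIN1 values was not tested. The mean of PDGFRB alone was 96.4 CPM for wild-type, 160 for clone 1, 66.3 for clone 2 and 24.7 for rescue. PDGFRB thus made up most of each sum. Of 6 skeletal muscle markers 3 had a row, and their sum was 1.24 to 2.32 CPM in wild-type and 3.17 to 3.75 CPM in clone 1. The 1 adipocyte marker of 6 with a row stayed at 0.569 CPM or less, and the 2 blood cell markers of 5 with a row summed to 0.244 CPM or less. No marker with a row was at 0 in all 3 libraries of a group.

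For each member, the genes whose levels ran most alike over the 12 libraries were found by Pearson's r of log2(CPM + 1), among 11962 protein coding genes with a mean of 1 CPM or more. The libraries form 4 groups, so r mostly reflects 4 levels and is a description. CAV1 was most like YWHAQ (r = 0.993), EXOC1 (0.992) and XRCC5 (0.992), and 206 genes had an r of 0.95 or more. YWHAQ, a 14-3-3 protein, was at 508 to 527 CPM for wild-type, 350 for clone 1, 551 to 584 for clone 2 and 629 to 664 for the libraries labelled rescue. CAV2 was most like NDUFA5 (0.991), RNF146 (0.983) and MTERF1 (0.978), with 89 genes at 0.95 or more.

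CAVIN1 was most like CPED1 (r = 0.998), VAMP8 (0.998) and ANO9 (0.997), with 296 genes at 0.95 or more. CPED1 was at 24.4 to 25.6 CPM in clone 1 and at 0.207 to 0.602 CPM in the other 9 libraries, so many genes with a high r are simply high in clone 1. CAVIN3 was most like EMP1 (0.992), MKNK2 (0.992) and PRRT4 (0.990), with 142 genes at 0.95 or more. EMP1, a membrane protein of epithelia, was at 9.10 to 10.4 CPM for wild-type, 141 to 151 for clone 1, 15.9 to 16.9 for clone 2 and 22.5 to 24.4 for the libraries labelled rescue. EMP1 and CAVIN3 thus had the same order of the 4 groups. Among the members, r was 0.904 for CAV1 with CAV2, 0.916 for CAVIN1 with CAVIN3 and −0.932 for CAV1 with CAVIN1.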

How the data were processed

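Libraries were made with a stranded mRNA kit, per the labels' protocols, and the submitters' processing notes name FastQC, STAR and the hg38 build with no versions. The authors deposited raw read counts per gene for 12 libraries. The counter, its strand setting and the filter behind the 21569 genes are not given in the sources. Groups came from the sample titles. GENCODE release 29 gave coordinates and exon lengths, and RefSeq the promoter sequences.

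Counts were tested with edgeR 4.0.16 under R 4.3.3. The quasi-likelihood test used TMM scaling, kept genes at a minimum count of 10, and fitted group means to the 12 libraries together. P-values were adjusted over 17084 genes by Benjamini-Hochberg, and genes were called under 0.05. CPM used TMM-scaled totals. The procedure was also run on simulated data with known changes in far fewer genes than were called here. The outcome of that run is not used as a check of the calls. Replicate libraries were not copies of each other, differing beyond sampling noise (chi-square per degree of freedom 1.57 to 3.31). Floors of 3 counts per group and exact 95% intervals cover counting error only.

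Alternatives were other scalings and filters, DESeq2 1.42.0, fits of only the groups compared, a replicate block and each library left out. Named genes were the members, ID2, up to 4 called genes of each list and comparison by fold size (mean of 1 CPM or more), the 5 neighbours on each side and the 3 most alike genes. The members and lists were chosen with earlier results of these data known.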

Additional observations from a re-analysis of the deposited data

Results flagged for a closer look

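Some genes lay on opposite sides of wild-type in the clones, with every library of clone 1 on one side of all wild-type libraries and every library of clone 2 on the other. No test of the difference between the clones is given, since the genes were picked on these same libraries. Only members and list genes already named for a large called fold in a clone were searched. They were not split by chromosome, so the part, if any, of the chromosome 11 shift in their clone 2 values was not tested. The share of all tested genes that meet the rule was not counted, so these genes are not set apart from the rest. Among the members these were CAV1 (log2 fold change −0.33 in clone 1 and 0.086 in clone 2) and CAV2 (−0.28 and 0.15). Of the genes in the lists, those higher in clone 1 and lower in clone 2 were EHD2 (1.76 and −1.11), ROR1 (0.79 and −0.31), PRKCD (1.90 and −0.49), PDGFRB (0.73 and −0.54) and CCN1, a matricellular YAP target (0.73 and −1.62). PICALM (0.058 and −0.96) and the clathrin adaptor subunit AP2A2 (0.070 and −0.52) were named for their calls in clone 2 against wild-type. In clone 1 they missed the threshold (edgeR, adjusted p = 0.150 and 0.0709). Those lower in clone 1 and higher in clone 2 were CLTC, the clathrin heavy chain (−0.39 and 0.23), ACTA2, a smooth muscle actin (−0.90 and 1.57), and F3, tissue factor (−0.79 and 0.84).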

How the results depend on the processing

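Only 1 value of a member changed sign under an alternative. This was CAVIN1 in clone 2 against wild-type, which lay within its error of 0 and went from 0.04 to −0.03 without wild-type replicate 3. The calls for CAV1 in both rescue comparisons passed under all alternatives run. Under upper quartile scaling the log2 fold changes of CAVIN3 in rescue against clone 2 (0.79, adjusted p = 0.0527) and CAVIN1 in rescue against wild-type (−0.13, 0.0894) missed the threshold. So did CAVIN3 in rescue against clone 2 with DESeq2 (0.83, 0.0686) and CAVIN1 in rescue against wild-type with only those groups fitted (−0.17, 0.0515). With each library left out in turn, CAVIN1 in rescue against clone 2 ran from −0.24 to −0.16, CAVIN3 there from 0.65 to 0.97, CAV2 in rescue against wild-type from 0.0756 to 0.133 and CAVIN1 there from −0.23 to −0.13. The cause was not tested. CAVIN3 was not tested in clone 2 against wild-type when only those groups were fitted. Between same-numbered libraries the correlations of deviations ran from −0.07 to 0.11, and no 2 groups had all 3 over 0.1, so the numbers are not shown to pair the libraries. With the replicate block, CAVIN1 in rescue against clone 2 was −0.22 and CAVIN3 0.84 (adjusted p = 0.0326), and no call of a member changed. With the block, 6783 genes were called in rescue against clone 2, against 6701 without it. Upper quartile scaling turned 5380 higher and 5230 lower calls in clone 2 against wild-type into 6413 and 4257, and 3304 and 3397 in rescue against clone 2 into 2776 and 3871. Clone 2 libraries held only 6 to 14 CAVIN3 reads, which limits the precision of its values there. Counts over all genes stayed within 1.5 times in all 195 repeats, while those of the gene lists did so in 753 repeats and moved further in 27.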
